A study of Mus musculus with 9 samples.

Results

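The comparison described here is that of BV2 cells 12 h after lipopolysaccharide (LPS) with BV2 cells 1 h after LPS, the step from the early to the late response. BV2 is an immortalized mouse microglial line, and LPS, a glycolipid from the surface of Gram-negative bacteria, was given at 200 ng/ml. The series holds 3 libraries of untreated cells (0 h), 3 at 1 h and 3 at 12 h, and its title concerns the kinase PLK2, the chaperone HSP90α and the kinase IKKβ in microglial activation. All groups are of the same line, and whether the 3 libraries of each group are separate cultures is not said in the labels, so p-values measure only the spread between libraries. Genes with a mean of at least 1 FPKM (fragments per kilobase of transcript and per mapped total) over the 9 libraries were compared, which kept 5643 of the 6462 genes listed and left 819 out. The last gene inside this limit had a mean of 1.005 FPKM and the first outside 0.996. There were no untreated cells at 1 h or 12 h, so the effect of LPS and that of time in culture cannot be told apart.

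LPS is sensed by Toll-like receptor 4, which signals through the adaptors MyD88 and TRIF to the kinases of the IKK and MAP kinase families. Within minutes these switch on immediate early genes, many of which encode transcription factors, and primary NF-kB targets that need no new protein, among them inhibitors that shut the pathway off again. Later waves depend on factors and cytokines made in the first, including type I interferon, which acts back on the cell through its receptor, and they bring enzymes, acute phase proteins and a changed metabolism.

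Some groups of genes that recur below have a short DNA element in their promoters that is bound by the factor usually named with the group, and these stretches show the element in genes whose values are given further on. They come from RefSeq promoter windows (250 bases before to 50 after a start site, mouse build GRCm38.p6), and capitals mark every match to the element on either strand, overlapping matches being run together. The first group has the kappaB site, bound by NF-kB, in 3 inhibitor genes that were lower at 12 h than at 1 h and in 2 other regulator genes that were higher.
Nfkbie: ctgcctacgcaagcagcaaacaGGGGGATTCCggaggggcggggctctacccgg
Tnfaip3: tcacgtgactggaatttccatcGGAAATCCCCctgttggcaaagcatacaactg
Nfkbia: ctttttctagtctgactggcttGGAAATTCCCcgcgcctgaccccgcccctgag
Bcl3: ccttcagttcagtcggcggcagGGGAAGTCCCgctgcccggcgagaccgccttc
Tnip1: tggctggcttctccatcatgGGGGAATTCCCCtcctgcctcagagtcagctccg
The second has GAAANNGAA, the core of the interferon-stimulated response element (ISRE), in genes of the interferon response that were higher at 12 h.
Isg15: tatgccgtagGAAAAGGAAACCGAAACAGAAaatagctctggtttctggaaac
Ifit1: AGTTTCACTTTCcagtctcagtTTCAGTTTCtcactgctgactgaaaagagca
Gbp2: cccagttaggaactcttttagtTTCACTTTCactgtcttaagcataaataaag
The third has TGATGNAA, an element like the one bound by C/EBP-ATF dimers such as those with ATF4 or CHOP, in stress genes that were higher at 12 h.
Trib3: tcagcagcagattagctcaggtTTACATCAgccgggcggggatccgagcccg
Chac1: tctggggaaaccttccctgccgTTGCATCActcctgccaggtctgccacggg
Slc7a11: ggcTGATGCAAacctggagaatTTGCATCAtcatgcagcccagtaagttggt
The fourth has TTTGAA, the cell cycle genes homology region (CHR), in mitotic genes that were lower at 12 h.
Cenpf: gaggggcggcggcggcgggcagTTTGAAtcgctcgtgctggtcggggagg
Mki67: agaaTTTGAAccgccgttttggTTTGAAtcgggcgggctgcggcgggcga
Top2a: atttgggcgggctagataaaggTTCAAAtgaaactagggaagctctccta
The stretches of the first group lie at chr17:45555572-45555625 (plus strand) for Nfkbie, chr10:19015391-19015444 (minus strand) for Tnfaip3, chr12:55492645-55492698 (minus strand) for Nfkbia, chr7:19822722-19822775 (minus strand) for Bcl3 and chr11:54962965-54963018 (minus strand) for Tnip1. Those of the interferon response lie at chr4:156200854-156200906 (minus strand) for Isg15, chr19:34640783-34640835 (plus strand) for Ifit1 and chr3:142620583-142620635 (plus strand) for Gbp2. Those of the stress genes lie at chr2:152344017-152344068 (minus strand) for Trib3, chr2:119351027-119351078 (plus strand) for Chac1 and chr3:50443631-50443682 (minus strand) for Slc7a11, and those of the mitotic genes at chr1:189688057-189688106 (minus strand) for Cenpf, chr7:135716450-135716499 (minus strand) for Mki67 and chr11:99024185-99024234 (minus strand) for Top2a. A match describes letters in the window and does not show that a factor was bound.

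The summed FPKM of all listed genes was 203515 to 205413 in the 1 h libraries and 223720 to 228207 in the 12 h libraries, without overlap. Libraries of 1 group were alike, with Pearson correlations of log2(FPKM + 1) across genes of 0.998 to 0.999 within 1 h and within 12 h, against 0.941 to 0.948 between a 1 h and a 12 h library. The labelled cell type was checked against 12 markers of microglia and macrophages, of which 10 are listed, among them Itgam, Csf1r, Cd68, Adgre1, Tyrobp and Spi1. Their summed level was 2066 to 2069 FPKM at 1 h and 2146 to 2274 at 12 h, with 6 members higher and 4 lower at 12 h, and Cd68 turned to -0.085 under quantile normalization. Of the markers of astrocytes, neurons, fibroblasts and T and B cells, 0 are listed. Of the oligodendrocyte markers only Olig2 is, at 0 in all 6 libraries compared, and of the endothelial markers only Flt1, at 15.2 to 16.5 FPKM at 1 h and 20.9 to 21.8 at 12 h, whose part in the results was not tested. The listed genes were selected for differing among these samples, so a marker that is not listed may still be expressed. In such bulk samples fewer cells of a type and less RNA per cell cannot be told apart.

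Between 1 h and 12 h most listed genes shifted by a small amount and a minority by a large one. Of 5643 genes, 2362 were higher at 12 h (41.9%) and 2461 lower (43.6%) at an adjusted p under 0.05, by a linear model on log2(FPKM + 1), the scale of every log2 difference below. Differences below are given ± standard error and passed that test unless said otherwise. These shares describe genes that were listed because they differed among these samples, since the flag of the deposited test is 1 for all of them, and they do not carry over to the transcriptome. The median difference was 0.0065, with quartiles of -0.34 and 0.27, and 3465 of the 4823 called genes differed by less than 0.5. A difference of at least 1 was reached by 228 genes upward (4.04%) and 122 downward (2.16%), and one of at least 2 by 39 upward and 14 downward. The other 820 genes did not pass the test, and for all 820 the 95% interval of the difference lay within 0.5 of 0. The median standard error was 0.047, from 3 libraries a group.

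**Figure D1:**
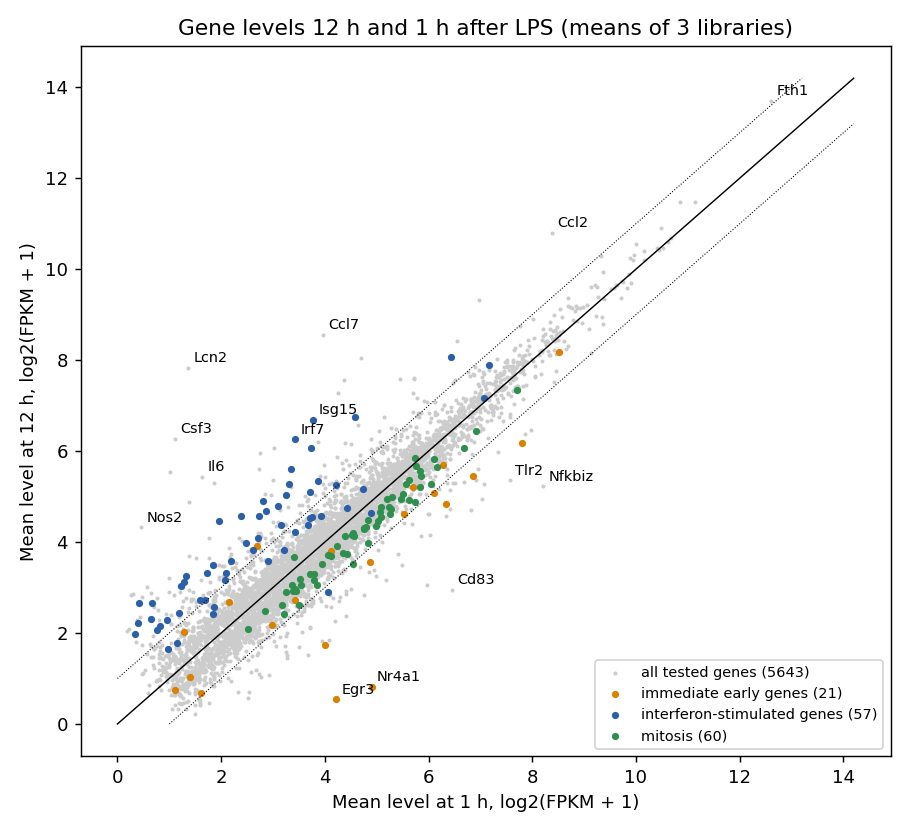
Mean level of each tested gene at 1 h (horizontal) and at 12 h (vertical), both as log2(FPKM + 1) over 3 libraries. The solid line marks equal levels and the dotted lines a log2 difference of 1. Immediate early genes (orange) lie mostly below the line, interferon-stimulated genes (blue) mostly above it, and mitosis genes (green) in a band just below it.

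The genes that fell furthest were, for the most part, high only at 1 h. Nr4a1, an orphan nuclear receptor and immediate early gene, was at 27.97, 28.01 and 30.8 FPKM at 1 h and 0.869, 0.709 and 0.708 at 12 h, a log2 difference of -4.09 ± 0.057, adjusted p = 1.75e-15. The 1 h libraries lay far above those at 12 h, and the 12 h level was also below the 2.87, 3.06 and 3.25 FPKM of untreated cells. Egr3, a zinc finger factor of the same early class, fell from 17.2, 16.8 and 18.7 FPKM to 0.475, 0.539 and 0.359 FPKM, a difference of -3.67 ± 0.065, adjusted p = 5.60e-15. Cd83, a surface protein of activated antigen-presenting cells, was at 88.7, 83.6 and 87.7 FPKM at 1 h and 7.09, 6.28 and 6.896 at 12 h (-3.50 ± 0.062, adjusted p = 5.60e-15). Here too the 12 h libraries ended below the untreated ones, which were at 17.99, 14.9 and 14.9 FPKM.

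Nfkbiz, which encodes the nuclear protein IκBζ that NF-kB needs to switch on a set of secondary genes, was at 296, 291 and 294 FPKM at 1 h and 38.8, 33.6 and 37.1 at 12 h, a difference of -2.98 ± 0.056, adjusted p = 8.97e-15. Its libraries did not overlap, and at 12 h it was still above the 3.03, 3.74 and 3.35 FPKM of untreated cells. Rasgef1b, an exchange factor for Ras-like GTPases, fell from 64.6, 59.7 and 59.8 FPKM to 7.13, 7.66 and 7.22 FPKM (-2.90 ± 0.044, adjusted p = 1.75e-15). Tlr2, the receptor for bacterial lipoproteins, went from 191, 189 and 185 FPKM to 39.5, 39.4 and 41.8 FPKM (-2.20 ± 0.034, adjusted p = 1.75e-15), and Nlrp3, the sensor of an inflammasome, from 111, 109 and 116 FPKM to 25.5, 23.9 and 26.4 FPKM (-2.10 ± 0.042, adjusted p = 1.96e-14). Both stayed above their untreated levels, 25.8, 24.3 and 25.7 FPKM for Tlr2 and 11.2, 11.6 and 12.2 FPKM for Nlrp3.

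A second kind of large decrease was of genes that had not risen past the test at 1 h. Ltc4s, the synthase of leukotriene C4, was at 20.9, 17.1 and 17.1 FPKM in untreated cells, at 14.6, 16.7 and 16.6 FPKM at 1 h and 2.35, 2.95 and 2.49 at 12 h, and the fall between the LPS groups was -2.24 ± 0.079, adjusted p = 4.66e-12. Abca9, a transporter of the ABC family, and St6gal1, a sialyltransferase of the Golgi, moved likewise, from 11.6, 11.2 and 12.6 FPKM to 1.84, 1.93 and 1.75 FPKM for Abca9 (-2.17 ± 0.054, adjusted p = 1.11e-13) and from 14.3, 14.7 and 14.5 FPKM to 2.598, 2.303 and 2.69 FPKM for St6gal1 (-2.13 ± 0.05, adjusted p = 7.17e-14). Rgs2, a regulator of G protein signalling, did not pass the test between 1 h and untreated cells (log2 difference 0.039) and was lower at 12 h than at 1 h (-1.94 ± 0.064, adjusted p = 2.23e-12). Its relative Rgs1 was higher at 1 h than in untreated cells, by 1.46, and lower at 12 h than at 1 h (-2.01 ± 0.039, adjusted p = 1.13e-14). In each of these genes the 3 libraries at 12 h were all below the 3 at 1 h.

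The genes that rose furthest encode secreted proteins in the main. Lcn2, the iron-siderophore binding lipocalin, was at 1.33, 1.79 and 1.56 FPKM at 1 h and 219, 210.1 and 254 at 12 h, a difference of 6.48 ± 0.1, adjusted p = 1.75e-15, the largest of any tested gene. Csf3, the granulocyte growth factor G-CSF, was at 0.995, 1.01 and 1.47 FPKM at 1 h and 73.3, 62.1 and 94.03 at 12 h (5.15 ± 0.12, adjusted p = 4.93e-14). Saa3, an acute phase apolipoprotein, rose from 22.3, 27.1 and 25.8 FPKM to 258, 244 and 287 FPKM (3.34 ± 0.075, adjusted p = 5.15e-14), and Slpi, an inhibitor of serine proteases, from 17.7, 16.8 and 19.9 FPKM to 153, 144 and 166 FPKM (3.02 ± 0.071, adjusted p = 7.17e-14). None of these had overlapping libraries, and all were higher at 1 h than in untreated cells, by 0.91 for Lcn2, 0.98 for Csf3, 2.72 for Saa3 and 0.61 for Slpi.

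Others among the 15 largest increases lay within 0.5 of the untreated level at 1 h. Nos2, the inducible nitric oxide synthase, was at 0.259, 0.375 and 0.483 FPKM at 1 h and 19.3, 16.9 and 20.9 at 12 h (3.87 ± 0.09, adjusted p = 6.83e-14), and the 1 h libraries lay below the 0.557, 0.801 and 0.929 FPKM of untreated cells. Pilra, an inhibitory receptor of myeloid cells, rose from 1.49, 1.84 and 1.42 FPKM to 27.4, 26.7 and 30.7 FPKM (3.50 ± 0.087, adjusted p = 1.11e-13), Pim2, a serine/threonine kinase that promotes survival, from 2.23, 2.97 and 2.66 FPKM to 38.8, 35.7 and 40.96 FPKM (3.45 ± 0.071, adjusted p = 2.46e-14), and Lrrc25, a leucine-rich repeat membrane protein, from 7.34, 6.28 and 7.804 FPKM to 66.3, 65.2 and 66.6 FPKM (3.05 ± 0.073, adjusted p = 9.31e-14). Their differences between 1 h and untreated cells were -0.31 for Pilra, 0.014 for Pim2 and 0.21 for Lrrc25, small beside the later ones.

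**Figure D2:**
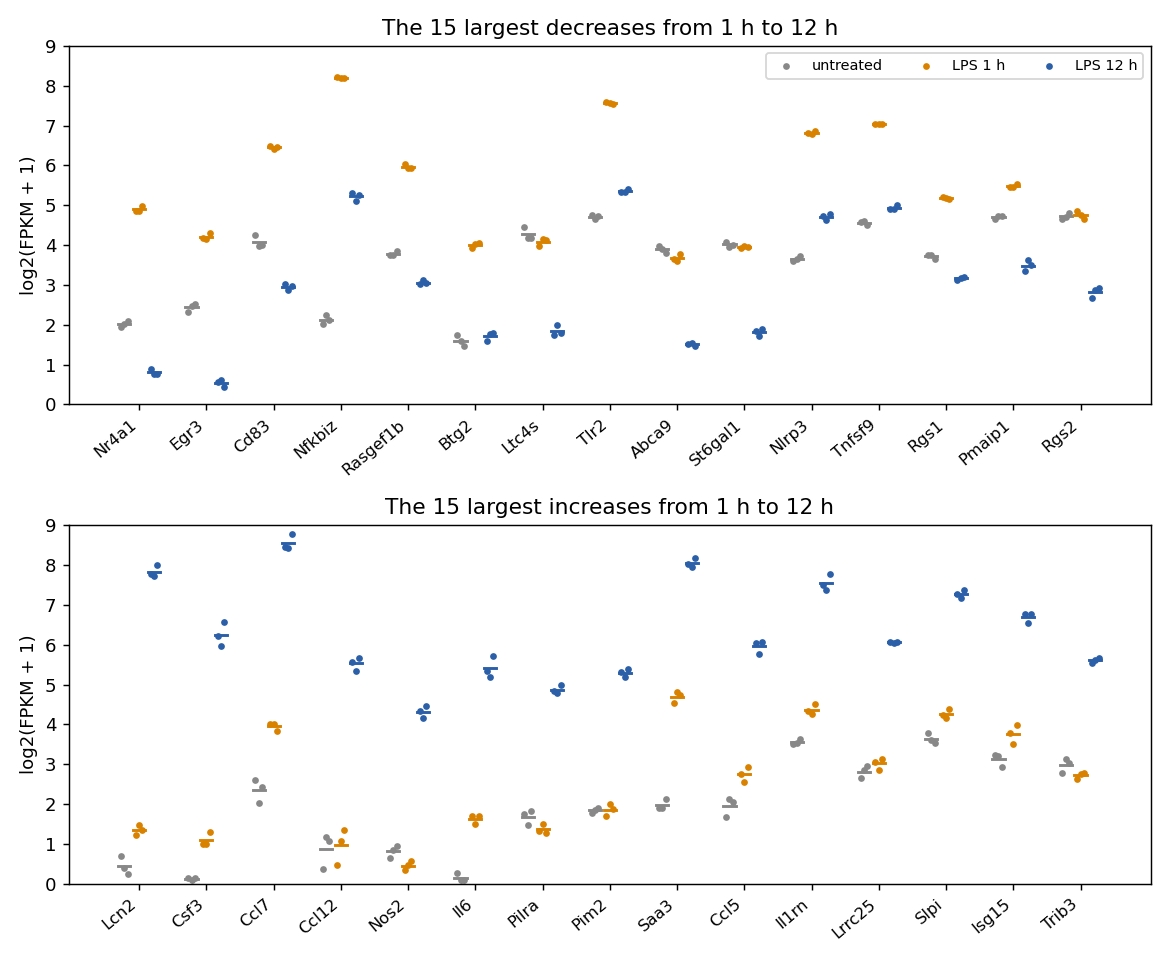
Level of the 15 genes with the largest decreases (top) and the 15 with the largest increases (bottom) in each of the 9 libraries, as log2(FPKM + 1). Points are libraries and short bars group means. In all 30 genes the 12 h points (blue) do not overlap the 1 h points (orange).

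Measured in FPKM, and so weighted towards abundant transcripts, the largest gain was that of Fth1, the heavy chain of the iron store ferritin. It was at 6087, 6413 and 6149 FPKM at 1 h and 13408, 12925 and 13745 at 12 h (1.10 ± 0.027), without overlap, and its difference is 0 under quantile normalization, where the highest gene of every library takes the same value. Ccl2 and Ccl3, chemokines for monocytes, and Spp1, the secreted matrix protein osteopontin, followed. Spp1 was at 642, 656 and 615 FPKM at 1 h and 1221, 1289 and 1272 at 12 h (0.98 ± 0.037). Eno1, an enolase of glycolysis, was at 2271, 2261 and 2239 FPKM at 1 h and 2866, 2818 and 2906 at 12 h (0.34 ± 0.023), but its difference was -0.11 under quantile normalization, which sets all libraries to 1 distribution of values. The largest losses were those of Apoe, the lipid carrier of the brain, from 553, 574 and 562 FPKM to 275, 292 and 286 FPKM (-0.98 ± 0.041), Nfkbiz, Cst3, the protease inhibitor cystatin C, Ccl4 and Sdc4, a heparan sulfate proteoglycan. Cst3 went from 654, 668 and 641 FPKM to 438, 429 and 457 FPKM (-0.57 ± 0.039) and Sdc4 from 256, 246 and 252 FPKM to 88.2, 87.7 and 86.03 FPKM (-1.51 ± 0.028).

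Most immediate early genes had come down by 12 h. Of 26 genes of this list 25 are listed and 21 were tested, and 18 were lower and 3 higher late than early. Their median difference was -0.82, against 0.0065 over all tested genes. Against untreated cells 17 were higher and 4 lower at 1 h, where 24.1% of all tested genes were higher and 34.9% lower, and 13 were higher and 6 lower at 12 h, where the shares were 41.1% and 40.6%. These comparisons share libraries with the main one. Btg2, an antiproliferative cofactor of mRNA deadenylation, was at 14.1, 15.2 and 15.7 FPKM at 1 h and 2.04, 2.43 and 2.46 at 12 h (-2.27 ± 0.073, adjusted p = 1.62e-12), close to its 2.34, 1.997 and 1.75 FPKM of untreated cells. Junb, a subunit of the factor AP-1, was at 218, 221 and 224 FPKM at 1 h and 69.3, 69.4 and 74.8 at 12 h (-1.62 ± 0.041), and the libraries did not overlap.

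The exceptions were 2 genes of AP-1 subunits and 1 repressor gene. Fosl1, which encodes the AP-1 subunit FRA1, was at 5.597, 5.56 and 5.104 FPKM at 1 h and 14.1, 13.8 and 14.6 at 12 h and thus higher late (1.24 ± 0.11). Klf10, a repressor induced by TGF-β, rose from 1.38, 1.38 and 1.57 FPKM to 3.19, 3.14 and 2.77 FPKM (0.72 ± 0.062). Klf10 differed from untreated cells by -1.26 at 1 h and -0.54 at 12 h. Fos itself was at 3.21, 3.71 and 3.41 FPKM at 1 h and 4.95, 5.68 and 5.54 at 12 h and in untreated cells at 4.14, 3.75 and 5.28 FPKM. The late level of Fos was the higher one (0.52 ± 0.086), and the 1 h level differed from the untreated by -0.27.

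The dual-specificity phosphatases and Sprouty-related proteins, which switch MAP kinases or Ras signalling off, did not move together. Of 12 tested members (16 in the list) 7 were lower and 4 higher at 12 h, median -0.30, where 43.6% of all tested genes were lower and 41.9% higher. Dusp1, which acts on p38 and JNK in the nucleus, was at 17.7, 18.04 and 19.4 FPKM at 1 h and 5.36, 5.76 and 5.33 at 12 h (-1.58 ± 0.058), and Dusp2 fell from 63.98, 62.3 and 64.4 FPKM to 25.1, 21.6 and 23.6 FPKM (-1.40 ± 0.059). Dusp6, which acts on ERK in the cytoplasm, went the other way, from 10.9, 9.89 and 10.3 FPKM to 27.6, 27.8 and 26.5 FPKM (1.32 ± 0.044), as did Dusp14, from 1.25, 1.68 and 1.299 FPKM to 3.44, 3.05 and 3.36 FPKM (0.83 ± 0.075). Dusp6 differed from untreated cells by -1.045 at 1 h and 0.27 at 12 h. The 1 h and 12 h libraries of these 4 genes did not overlap.

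The title of the series names 3 proteins, and of their genes Plk2, a polo-like kinase known as an early response gene, was at 116, 122 and 123 FPKM at 1 h and 39.8, 37.5 and 43.4 at 12 h, a difference of -1.56 ± 0.05, adjusted p = 1.62e-12. The 1 h libraries were the highest of the 3 groups, above the 12.5, 12.7 and 13.9 FPKM of untreated cells, and the 12 h libraries lay between. Plk3, its closest relative in that class, was at 7.15, 7.002 and 8.12 FPKM at 1 h and 8.28, 7.82 and 7.797 at 12 h and did not pass the test (difference 0.092, 95% interval -0.046 to 0.23, adjusted p = 0.194), though it did without the third 1 h library (0.15, adjusted p = 0.0466). Plk4, the kinase of centriole duplication, was lower at 12 h (-0.46 ± 0.085). Hsp90aa1, which encodes HSP90α, was at 627, 603 and 607 FPKM at 1 h and 665, 701 and 656 at 12 h (0.14 ± 0.034), a small difference that became -0.0079 under quantile normalization. Plk1 and Ikbkb, the gene of IKKβ, were not analysed here.

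The NF-kB list was mixed, and inhibitors were among the genes that fell. Of 20 tested genes (23 in the list) 11 were lower and 8 higher at 12 h, median -0.29, where 43.6% of all tested genes were lower and 41.9% higher. Against untreated cells 19 were higher and 0 lower at each time, where 24.1% of all tested genes were higher at 1 h and 41.1% at 12 h. Nfkbia, which encodes the inhibitor IκBα, was at 138, 142 and 142 FPKM at 1 h and 77.8, 75.3 and 78.3 at 12 h (-0.86 ± 0.045), Nfkbie (IκBε) fell from 5.95, 5.02 and 6.59 FPKM to 1.1, 0.869 and 1.18 FPKM (-1.74 ± 0.11), and Tnfaip3, which encodes the ubiquitin editing enzyme A20, from 17.7, 19.5 and 18.6 FPKM to 5.59, 5.86 and 6.41 FPKM (-1.50 ± 0.058). All 3 had 1 h libraries above those at 12 h and those of untreated cells. Rel, a subunit of the factor itself, was lower at 12 h too (-1.0 ± 0.05).

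The members that rose include regulators of other kinds. Bcl3, a nuclear IκB protein that works with p50 and p52, was at 3.17, 3.04 and 4.096 FPKM at 1 h and 13.4, 13.8 and 13.6 at 12 h (1.73 ± 0.076), Tnip1, a partner of A20, rose from 17.7, 17.1 and 18.1 FPKM to 40.04, 38.1 and 40.5 FPKM (1.12 ± 0.037), and the cytokine signalling inhibitors Socs3 and Socs1 rose by 1.39 ± 0.052 for Socs3 and 0.99 ± 0.081 for Socs1. Socs3 was at 5.44, 4.78 and 4.81 FPKM in untreated cells and at 10.8, 11.2 and 11.7 FPKM at 1 h and 30.9, 29.7 and 32.8 at 12 h, so that it rose at each step. Each of these 4 genes had its 12 h libraries above the other groups.

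Most factors that destabilise mRNA were lower at 12 h. Of 17 tested genes (24 in the list) 13 were lower, 0 higher and 4 did not pass, median -0.39. Zfp36, which encodes tristetraprolin, the protein that binds AU-rich elements in cytokine mRNA, was at 86.9, 90.2 and 92.8 FPKM at 1 h and 41.6, 37.2 and 37.2 at 12 h (-1.20 ± 0.053), and Zc3h12c, of the Regnase family of RNases, fell from 32.8, 31.1 and 31.4 FPKM to 13.4, 13.5 and 12.8 FPKM (-1.20 ± 0.044). Zc3h12a, which encodes Regnase-1, was at 1.78, 1.498 and 2.03 FPKM in untreated cells and 16.4, 17.4 and 17.2 FPKM at 1 h and 15.2, 14.9 and 16.96 at 12 h and did not pass (difference -0.11, 95% interval -0.25 to 0.029, adjusted p = 0.123). It did pass without the third 12 h library (-0.17, adjusted p = 0.036) and with only the 6 libraries compared (adjusted p = 0.0494). Rc3h1, which encodes the decay factor Roquin, differed by -0.64 (SE 0.048). At 1 h 12 of the 17 were higher than in untreated cells, and at 12 h 8 were. The shares over all tested genes were 24.1% at 1 h and 41.1% at 12 h.

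Cytokine genes divided evenly, with 7 higher and 7 lower of 15 tested (28 in the list), where 41.9% of all tested genes were higher and 43.6% lower. Their median was 0.15, which is the value of Il1b and was -0.0022 without the third 12 h library. Tnf, the first cytokine of the macrophage response, was at 351, 348 and 348 FPKM at 1 h and 214, 205 and 225 at 12 h (-0.70 ± 0.039, adjusted p = 5.50e-10). It thus came down while it stayed above the 14.3, 12.8 and 13.7 FPKM of untreated cells. Tnfsf9, the ligand of the costimulator 4-1BB, fell further, from 129.7, 130.4 and 131 FPKM to 28.96, 29.02 and 30.9 FPKM (-2.10 ± 0.036, adjusted p = 4.02e-15), and Csf1, the growth factor of macrophages, from 29.04, 29.4 and 31.3 FPKM to 9.77, 9.396 and 9.28 FPKM (-1.56 ± 0.042), to a level below the 11.98, 11.2 and 11.2 FPKM of untreated cells.

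Il6, the acute phase and B cell cytokine, was at 2.27, 1.82 and 2.23 FPKM at 1 h and 39.3, 35.2 and 52 at 12 h (3.78 ± 0.11, adjusted p = 5.47e-13), and Il1a from the interleukin 1 pair rose from 0.4996, 0.464 and 0.495 FPKM to 7.08, 5.07 and 9.02 FPKM (2.41 ± 0.12). Il1b was at 7.64, 6.88 and 6.35 FPKM at 1 h and 8.34, 5.73 and 9.77 at 12 h, and the libraries of the groups overlapped. Its difference of 0.15 did not pass the test (95% interval -0.12 to 0.41, adjusted p = 0.278), and the call depended on single libraries: without the second 12 h library it was 0.34 (adjusted p = 0.00127) and without the third -0.0022. Il1rn, the antagonist of the interleukin 1 receptor, was at 19.1, 18.1 and 21.7 FPKM at 1 h and 181, 165 and 219 at 12 h (3.19 ± 0.083, adjusted p = 1.87e-13), without overlap. Ebi3, a subunit of interleukin 27 and interleukin 35, rose by 1.83 ± 0.066.

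Among the chemokines 7 of 10 tested genes (25 in the list) were higher at 12 h and 2 lower, median 1.0. Ccl7, Ccl12 and Ccl2, which attract monocytes through CCR2, were the largest with Ccl5, which attracts T cells and monocytes. Ccl2 was at 346, 341 and 308 FPKM at 1 h and 1754, 1697 and 1895 at 12 h (2.42 ± 0.054), Ccl7 at 15.1, 15.2 and 13.3 FPKM at 1 h and 349, 342 and 441 at 12 h (4.60 ± 0.12, adjusted p = 1.56e-13) and Ccl12 at 0.391, 1.11 and 1.55 FPKM at 1 h and 46.3, 39.6 and 50.2 at 12 h (4.56 ± 0.20, adjusted p = 5.73e-11). The 3 lie in 1 gene cluster with similar sequence, and how reads were divided between them is not given in the sources used here. Ccl5 rose from 5.73, 4.89 and 6.62 FPKM to 64.6, 53.6 and 66.3 FPKM (3.21 ± 0.11, adjusted p = 5.18e-12).

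Cxcl10, the chemokine for CXCR3 that is often counted among interferon-stimulated genes, was highest at 1 h, at 2.096, 2.33 and 2.505 FPKM in untreated cells and 119, 128 and 123 FPKM at 1 h and 47.5, 48.04 and 47.9 at 12 h (-1.35 ± 0.043). Ccl4 was slightly lower at 12 h (-0.36 ± 0.073), whereas Ccl3, its neighbour in the genome, was higher, at 1937, 1815 and 1803 FPKM at 1 h and 2768, 2802 and 3034 at 12 h (0.63 ± 0.038), a call that was lost under quantile normalization (0.11, adjusted p = 0.147). Cxcl2, a chemokine for neutrophils, had overlapping libraries, at 51.6, 54.4 and 59.6 FPKM at 1 h and 57.6, 47.2 and 78.3 at 12 h. Its difference of 0.12 did not pass the test (95% interval -0.19 to 0.42, adjusted p = 0.449) and was -0.077 without the third 12 h library.

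**Figure D3:**
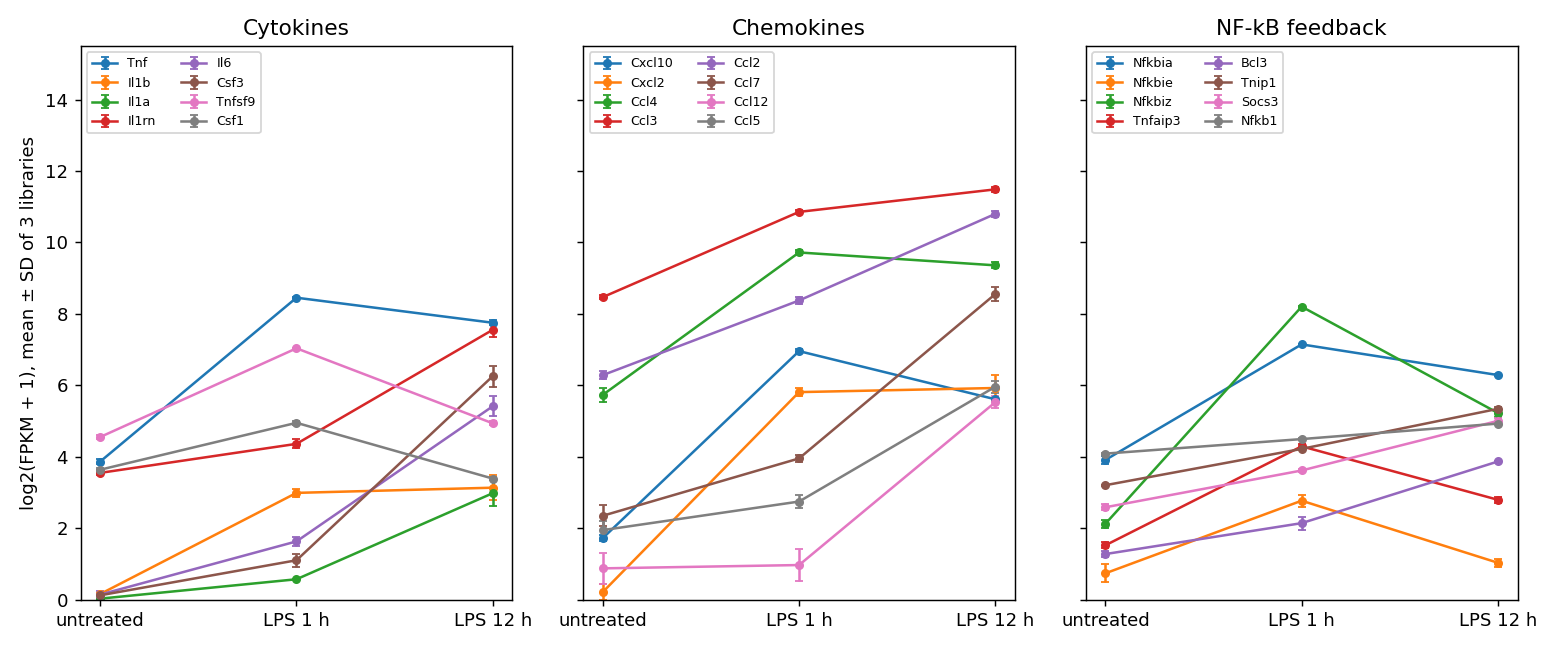
Level of 8 cytokine, 8 chemokine and 8 NF-kB related genes in untreated cells and at 1 h and 12 h after LPS, as log2(FPKM + 1). Points are means and bars SDs of 3 libraries. Tnf, Tnfsf9, Cxcl10, Nfkbiz, Nfkbia and Tnfaip3 peak at 1 h, while Il6, Csf3, Ccl7, Ccl12, Bcl3 and Socs3 are highest at 12 h.

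Inflammatory effectors were mostly higher late, 19 of 27 tested (36 in the list) against 8 lower, median 1.05. Besides Lcn2, Nos2, Saa3 and Slpi the list holds Acod1, the enzyme that makes itaconate, a product of activated macrophages. It was at 125, 125 and 126 FPKM at 1 h and 627, 617 and 688 at 12 h (2.35 ± 0.057), without overlap. The 8 lower members included, besides Cd83, Tlr2 and Nlrp3, the urokinase gene Plau, which fell from 134, 138 and 127 FPKM to 37.9, 38.05 and 38.1 FPKM (-1.78 ± 0.034).

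Between 1 h and 12 h the tested components of the receptor and kinase cascade changed little. Of 32 genes of this list 22 are listed and 21 were tested, and 8 were lower, 6 higher and 7 did not pass. Their median was -0.048, and the differences ran from -0.48 to 0.56. The shares over all tested genes were 43.6% lower and 41.9% higher. Against untreated cells 10 were higher and 5 lower at 1 h, where the shares were 24.1% and 34.9%. Cd14 differed there by 1.54, Irak2 by 1.07 and Ticam2 by -0.60. Irak1, a kinase of the MyD88 complex, was at 19.9, 20.6 and 22.1 FPKM at 1 h and 14.6, 14.4 and 15.1 at 12 h (-0.48 ± 0.042), and Ripk2, a kinase downstream of NOD receptors, at 4.33, 3.304 and 4.09 FPKM at 1 h and 6.24, 6.04 and 6.39 at 12 h (0.56 ± 0.072). Ikbke, an IKK-related kinase that acts on interferon regulatory factors, was higher by 0.56 ± 0.046, and Traf6, the ubiquitin ligase of the cascade, differed by -0.37 (SE 0.044).

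Genes of the interferon response, which code for antiviral proteins in the main, were higher at 12 h almost throughout. Of 57 tested genes (77 in the list) 54 were higher at 12 h, 2 lower and 1 did not pass, median 1.38, and 40 of the 54 were higher by at least 1. At 1 h the same list had 10 genes higher and 13 lower than untreated cells, median -0.033, and at 12 h 55 higher and 0 lower, median 1.49. Isg15, a ubiquitin-like modifier, was at 12.9, 10.3 and 14.9 FPKM at 1 h and 107, 92.7 and 107 at 12 h (2.93 ± 0.10, adjusted p = 5.39e-12), Irf7, the master regulator of interferon α, at 9.04, 9.38 and 11 FPKM at 1 h and 78.1, 69.3 and 80.4 at 12 h (2.83 ± 0.077), and Oasl2, of the oligoadenylate synthase family, at 2.395, 3.18 and 3.07 FPKM at 1 h and 21.9, 19.8 and 21.4 at 12 h (2.51 ± 0.076). All 12 h libraries of these genes were above all 1 h libraries. Lgals9, which encodes the lectin galectin-9, rose by 2.34 ± 0.057. Ifit1 and Gbp2, whose promoter stretches are shown above, rose by 1.81 for Ifit1 and 2.22 for Gbp2.

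The lower members were Irf1 and the gene listed as AI607873 (Ifi207). Irf1, a primary NF-kB target that encodes an interferon regulatory factor, was at 6.48, 6.03 and 5.54 FPKM in untreated cells and 15.98, 16.2 and 14.9 FPKM at 1 h and 6.64, 6.58 and 6.12 at 12 h (-1.17 ± 0.055, adjusted p = 9.22e-11), and so was highest at 1 h. Many members of this list, among them the Oas, Ifit, Ifi200 and Gbp families, have close paralogs with which reads could be shared, so their single values are uncertain.

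Antigen presentation rose by smaller amounts, with 18 of 20 tested genes (28 in the list) higher and 1 lower, median 0.46. H2-T23, a nonclassical class I gene, was at 12.7, 12.01 and 14.3 FPKM at 1 h and 33.4, 31.04 and 31.2 at 12 h (1.24 ± 0.055), and Tap1 and Tapbp, which load peptides on class I molecules, rose from 7.299, 8.83 and 7.96 FPKM to 15.6, 15.6 and 17.4 FPKM for Tap1 (0.93 ± 0.061) and from 32.4, 32.9 and 34.8 FPKM to 62.6, 60.3 and 67.04 FPKM for Tapbp (0.90 ± 0.041). H2-Q4 was lower (-0.35 ± 0.075), and H2-K1 did not pass (difference -0.067, 95% interval -0.16 to 0.024, adjusted p = 0.15), though it did without the third 12 h library (-0.11, adjusted p = 0.0262) and under quantile normalization (-0.13, adjusted p = 0.00978). The class I genes are near-identical in parts, so reads could be split between them.

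Genes of the integrated stress response, which ATF4 controls when amino acids are short or the endoplasmic reticulum is loaded, were higher at 12 h in 34 of 37 tested cases (43 in the list), lower in 1, median 0.71. Trib3, a pseudokinase that holds ATF4 in check, was at 5.17, 5.75 and 5.85 FPKM at 1 h and 45.8, 47.8 and 49.7 at 12 h (2.89 ± 0.074, adjusted p = 1.56e-13). Slc7a11, the cystine importer, was at 13.1, 13.1 and 14.4 FPKM at 1 h and 72.5, 66.4 and 77.2 at 12 h (2.33 ± 0.052), Chac1, which degrades glutathione, at 1.31, 1.21 and 0.844 FPKM at 1 h and 5.69, 6.54 and 6.31 at 12 h (1.76 ± 0.082), and Ddit3, which encodes the factor CHOP, at 1.88, 1.95 and 1.39 FPKM at 1 h and 6.27, 6.09 and 7.12 at 12 h (1.46 ± 0.079). These 4 had no overlap between 1 h and 12 h. The lower member was Slc38a2, an amino acid importer that is known as an ATF4 target, which fell from 148, 147 and 147 FPKM to 103, 101 and 99.4 FPKM (-0.53 ± 0.025).

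Chaperones of the endoplasmic reticulum moved in the same direction, whereas the heat shock list, which holds chaperones of the cytosol and of mitochondria, their cofactors and a heat shock factor, was mixed. Of 34 genes of folding and export 31 were higher and 1 lower, median 0.46. Ero1l, an oxidase of disulfide formation, was at 27.9, 28.6 and 30.8 FPKM at 1 h and 62.7, 60.6 and 63.9 at 12 h (1.07 ± 0.052), Manf rose by 0.97 ± 0.028, and Creld2 by 0.96 ± 0.032. Of 20 tested genes of the heat shock list (29 in all) 8 were higher and 4 lower, while 8 did not pass. The shares over all tested genes were 41.9% higher and 43.6% lower. The median of the heat shock list was 0.039 and became -0.054 under quantile normalization. Dnajb1, the cofactor of HSP70, was at 16, 16.6 and 16.3 FPKM at 1 h and 11.9, 11.4 and 12.5 at 12 h (-0.42 ± 0.041). Of 32 tested genes of the proteasome list 27 were higher and 1 lower, but the median was only 0.19. The largest rise within that list was that of Psmd5 (0.39 ± 0.034). Proteasome genes counted under antigen presentation rose by 0.47 for Psmb8, 0.45 for Psme2, 0.41 for Psmb10 and 0.20 for Psme1.

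Antioxidant genes known as NRF2 targets were higher at 12 h in 17 of 21 cases and lower in 4, median 0.60. Hmox1, which degrades heme, was at 49.2, 52.05 and 51.4 FPKM at 1 h and 153, 148 and 160.4 at 12 h (1.57 ± 0.035), Osgin1 rose by 1.18 ± 0.065, and Blvrb, a biliverdin reductase, by 1.16 ± 0.057. Osgin1 differed from untreated cells by -1.34 at 1 h and -0.17 at 12 h, and Hmox1 by -0.63 at 1 h and 0.95 at 12 h. Nfe2l2, which encodes NRF2 itself, went down, from 160, 160 and 162 FPKM to 64.6, 59.5 and 63.1 FPKM (-1.35 ± 0.032), as did Ephx1, an epoxide hydrolase, from 8.18, 8.54 and 8.93 FPKM to 1.83, 2.13 and 1.97 FPKM (-1.68 ± 0.049). The 1 h and 12 h libraries of these genes did not overlap.

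Sugar and mitochondrial fuel genes moved apart. Of 33 tested genes of glycolysis and the HIF response 25 were higher at 12 h and 4 lower, median 0.34, after 29 of them had been lower at 1 h than in untreated cells. Against untreated cells 18 were higher and 13 lower at 12 h, median 0.10, where 41.1% of all tested genes were higher and 40.6% lower. Slc2a1, the glucose transporter GLUT1, was at 68.5, 63.99 and 70.5 FPKM in untreated cells and 55.01, 57.1 and 58.8 FPKM at 1 h and 115, 106 and 122 at 12 h (0.99 ± 0.047). Hk3, a hexokinase of myeloid cells, rose from 28.2, 28.2 and 29.4 FPKM to 63.9, 63.1 and 68.7 FPKM (1.16 ± 0.04), and Ddit4, an inhibitor of mTORC1 that hypoxia induces, from 7.04, 6.74 and 7.33 FPKM to 20.9, 19.8 and 21.1 FPKM (1.43 ± 0.041). The late level of Ddit4 stayed below the 33.1, 33.8 and 31.9 FPKM of untreated cells, with a difference of -0.65. Pfkm, the muscle form of phosphofructokinase, fell by 1.07 on the log2 scale (SE 0.05).

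Of 28 tested genes of mitochondrial oxidation (49 in the list) 23 were lower and 5 higher, median -0.37. Cpt1a, which admits fatty acids to mitochondria, was at 2.78, 2.69 and 2.33 FPKM at 1 h and 0.671, 0.902 and 0.765 at 12 h (-1.02 ± 0.068), Acadm, a dehydrogenase of their oxidation, at 35.7, 35.5 and 35.7 FPKM at 1 h and 20.2, 23.6 and 21.2 at 12 h (-0.70 ± 0.046), and Etfdh, which passes the electrons on, at 16.97, 16.7 and 18.2 FPKM at 1 h and 9.94, 10.1 and 10.2 at 12 h (-0.72 ± 0.04). In these 3 genes the 12 h libraries were the lower ones throughout. The 5 higher members included Echs1 (0.32 ± 0.041), of the same pathway, and Cs, citrate synthase (0.13 ± 0.03), whose call was lost under quantile normalization (0.017). Oxidative phosphorylation, as annotated in the deposited table, had 17 higher and 12 lower of 30 tested genes, median 0.13. The shares over all tested genes were 41.9% higher and 43.6% lower.

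Cholesterol synthesis genes had risen at 1 h and fell by 12 h. Of 16 tested genes (27 in the list) 13 were higher and 0 lower at 1 h against untreated cells, median 0.32, and between 1 h and 12 h 11 fell and 2 rose, median -0.34. Insig1, which retains the factor SREBP in the endoplasmic reticulum, was at 47.5, 44.9 and 46.6 FPKM in untreated cells and 89.3, 89.6 and 84.7 FPKM at 1 h and 36.9, 41.4 and 37.4 at 12 h (-1.17 ± 0.042). Hmgcs1, an early enzyme of the pathway, differed by -1.10 ± 0.044. Lss, lanosterol synthase, rose instead (0.48 ± 0.047).

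Genes of lipid efflux and storage were divided, with 9 higher and 8 lower of 18 and a median of -0.0079. The shares over all tested genes, for this list and the lysosome list below, were 41.9% higher and 43.6% lower. Plin2, the coat protein of lipid droplets, was at 22.3, 23.5 and 22.9 FPKM at 1 h and 49.7, 53.4 and 52.4 at 12 h (1.14 ± 0.036), and Abcd2, a peroxisomal transporter of fatty acids, fell from 5.57, 5.84 and 5.55 FPKM to 1.05, 1.17 and 1.19 FPKM (-1.64 ± 0.054), beside Abca9 and Apoe. Of 38 tested lysosome genes 19 were higher and 15 lower, and their median of 0.078 became -0.039 under quantile normalization. Ctsb, the protease cathepsin B, was at 366, 379.5 and 363 FPKM at 1 h and 553, 554 and 565 at 12 h (0.59 ± 0.025) and Ctsf, cathepsin F, at 4.89, 4.61 and 4.76 FPKM at 1 h and 2.08, 1.42 and 1.52 at 12 h (-1.12 ± 0.077). Tfeb, a factor that drives lysosomal genes, differed by -0.90 (SE 0.079).

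Most tested genes of a list of markers of microglia at rest were lower late. Of 40 genes of this list 28 are listed and 22 were tested, and 16 fell and 5 rose, median -0.46. Listed members below the limit of 1 FPKM, and so not tested, include P2ry12 (mean 0.81 FPKM over the 9 libraries), Gpr34 (0.21), Fcrls (0.55) and C1qa (0.47). C1qc, a chain of complement C1q, was at 4.92, 5.41 and 5.91 FPKM at 1 h and 1.53, 1.33 and 0.921 at 12 h (-1.51 ± 0.14), Mertk, a receptor for the uptake of apoptotic cells, at 2.39, 2.44 and 2.42 FPKM at 1 h and 0.452, 0.472 and 0.233 at 12 h (-1.31 ± 0.076), and Rhob, a small GTPase, fell from 62.7, 64.9 and 64.8 FPKM to 17.1, 16.5 and 16.7 FPKM (-1.88 ± 0.04). Rhob had been higher at 1 h than in untreated cells, which were at 20.6, 18.9 and 21.1 FPKM (log2 difference 1.62), and its 12 h level differed from the untreated by -0.26. The 1 h and 12 h libraries of all 3 did not overlap. Cx3cr1, the fractalkine receptor, was slightly higher at 12 h (0.20 ± 0.071), with overlapping libraries and a call lost without the first 1 h (adjusted p = 0.0827), the second 12 h (0.0732) or the third 12 h library (0.0896), and with adjustment over the number of ranked genes (0.0748). Lpcat2, an enzyme that makes platelet-activating factor, rose by 1.12 ± 0.062. The marker list used to check the cell type, of which 6 members were higher and 4 lower, did not share this direction. The shares over all tested genes were 41.9% higher and 43.6% lower.

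Most proliferation genes were lower at 12 h, by amounts that varied between genes. All 60 tested mitosis genes (72 in the list) passed the test, 58 lower and 2 higher, with a median of -0.46 and a range of -1.03 to 0.26. Nusap1, a spindle protein, was at 24.4, 20.8 and 21.5 FPKM at 1 h and 11.2, 10.9 and 9.09 at 12 h (-1.03 ± 0.066), Cenpf, a kinetochore protein, at 11.03, 10.1 and 9.98 FPKM at 1 h and 5.299, 5.58 and 4.41 at 12 h (-0.90 ± 0.07), and Mki67, the antigen Ki-67, at 55, 51.6 and 51.5 FPKM at 1 h and 27.4, 32.2 and 25.9 at 12 h (-0.87 ± 0.062). In all 3 the 12 h libraries were below those at 1 h. Top2a, the topoisomerase, differed by -0.52 (SE 0.031). The 2 exceptions were Pttg1, which encodes securin (0.26 ± 0.071), and Aurka, a spindle kinase (0.12 ± 0.031), whose call was lost under quantile normalization (0.054).

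Of 47 tested DNA replication genes (60 in the list) 38 were lower and 2 higher, median -0.33, and 7 did not pass. The lower genes included Fancd2, of the Fanconi repair pathway (-0.67 ± 0.053), Tk1, thymidine kinase (-0.61 ± 0.059), and Mcm7, a subunit of the replicative helicase (-0.58 ± 0.042). E2f2, a factor of the family that drives such genes, rose (0.61 ± 0.054). At 1 h neither list had moved as a whole, with medians of 0.034 for replication and -0.0068 for mitosis against untreated cells.

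Cell cycle inhibitors and cyclins were mixed, 12 higher and 10 lower of 25, where 41.9% of all tested genes were higher and 43.6% lower. Ccnd1, cyclin D1, was at 28.9, 30.2 and 30.2 FPKM at 1 h and 54.1, 54.8 and 54.2 at 12 h (0.85 ± 0.032), and Cdkn2d, an inhibitor of its kinase, at 11.3, 11.4 and 10.8 FPKM at 1 h and 20.9, 20.4 and 20.6 at 12 h (0.83 ± 0.047). Gadd45b, a stress protein that NF-kB induces, rose from 7.51, 7.84 and 7.22 FPKM to 13.4, 14.7 and 14.1 FPKM (0.82 ± 0.044). Mxd4, an antagonist of MYC, fell from 6.57, 5.12 and 8.12 FPKM to 1.17, 1.15 and 1.04 FPKM (-1.82 ± 0.11), and Myc fell as well (-0.93 ± 0.099).

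Genes of cell survival and death were mixed, on the protective as on the killing side. Of 21 tested genes 13 were higher and 8 lower, median 0.22, where 41.9% of all tested genes were higher and 43.6% lower. Bcl2l1, which encodes BCL-XL, was at 8.76, 8.87 and 8.84 FPKM at 1 h and 26.6, 24.8 and 26.9 at 12 h (1.46 ± 0.046), and Pmaip1, which encodes the proapoptotic protein NOXA, at 43.3, 42.9 and 45.3 FPKM at 1 h and 9.13, 11.4 and 10.3 at 12 h (-2.0 ± 0.058, adjusted p = 5.61e-13). Mcl1 and Cflar, which also protect cells, fell, by 0.92 for Mcl1 and 0.94 for Cflar on the log2 scale (SE 0.03 and 0.043). Bcl2a1b and Bcl2a1d were both higher, but they are near-identical copies whose reads may be shared. Ribosome biogenesis genes showed no common direction, with 14 higher, 17 lower and 29 of 60 that did not pass, and a median of 0.0064 that was -0.038 under quantile normalization.

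**Figure D4:**
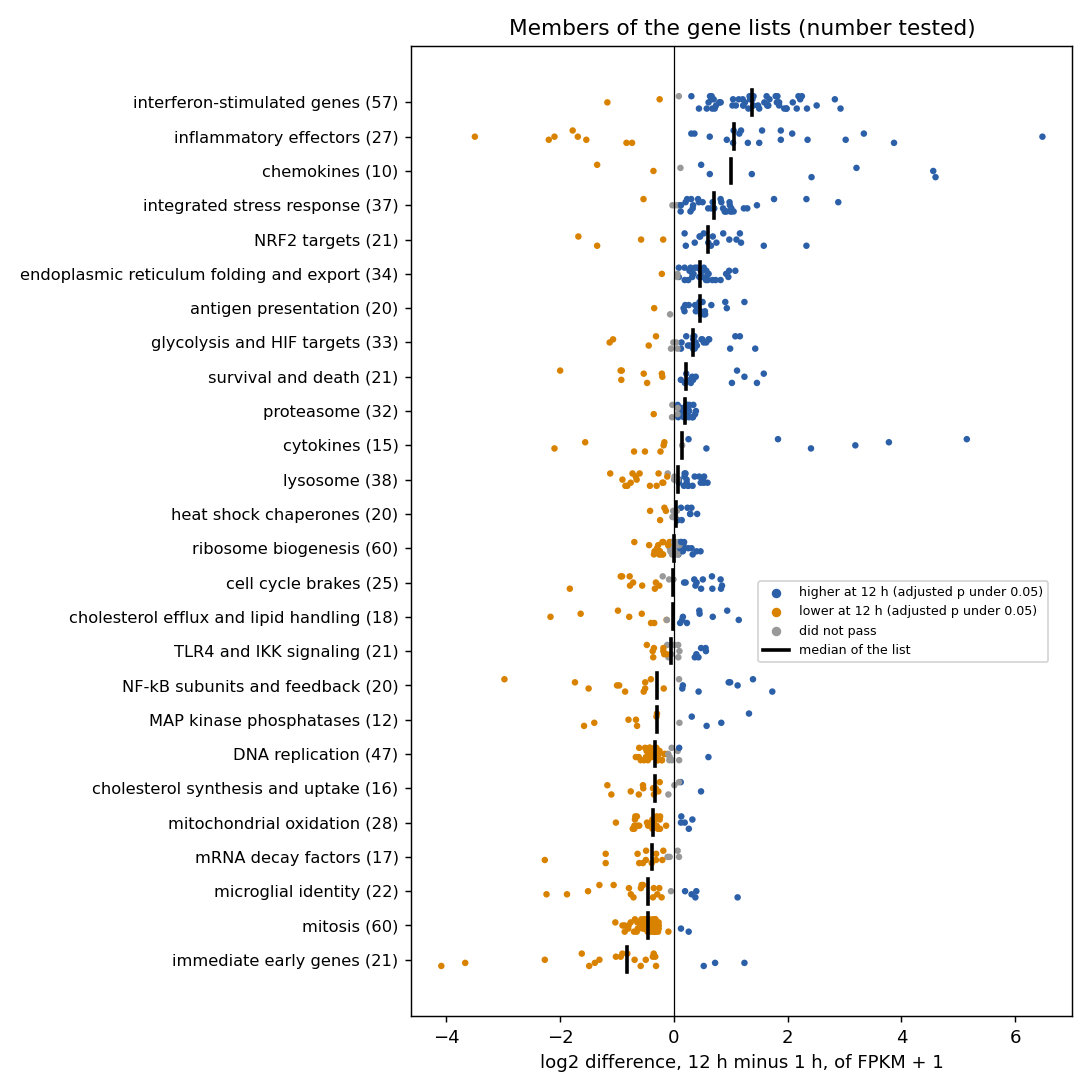
Log2 difference (12 h minus 1 h, of FPKM + 1) of every tested member of 26 gene lists, ordered by the median, which is drawn as a black bar. Blue points passed the test as higher at 12 h, orange as lower, grey did not pass. Interferon-stimulated genes have the highest median (1.38) and immediate early genes the lowest (-0.82), and mitosis genes run from -1.03 to 0.26.

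Transcription factors as annotated in the deposited table leaned towards lower levels at 12 h. Of 369 tested factors 195 were lower and 122 higher, median -0.18, against 2461 (43.6%) and 2362 (41.9%) of all 5643 tested genes. By a difference of at least 1, 17 fell and 11 rose, where 2.16% of all tested genes fell and 4.04% rose. The 17 include Nr4a1, Egr3, Junb, Nfe2l2, Mxd4, Irf1 and Rel, and the 11 include Irf7 and Fosl1. By family, HMG factors were lower in 11 of 13 cases and higher in 0 (median -0.35), and factors of the Rel homology family in 7 of 9 (median -0.30). The 112 zinc finger factors of the C2H2 type had 53 lower and 39 higher members (median -0.079).

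The pathway annotation in the deposited table gives 198 pathways with at least 20 tested genes. The lowest medians were those of valine, leucine and isoleucine degradation (-0.38, 17 of 23 genes lower), DNA replication (-0.37, 27 of 29 lower and 0 higher), bile secretion (-0.36), salivary secretion (-0.36), lysine degradation (-0.33) and the peroxisome (-0.32, 24 of 36 lower). The highest were those of viral myocarditis (0.32, 19 of 29 higher), hematopoietic cell lineage (0.29), glycolysis and gluconeogenesis (0.27, 20 of 27 higher), aminoacyl-tRNA biosynthesis (0.27), amino sugar and nucleotide sugar metabolism (0.26, 18 of 21 higher) and the phagosome (0.26, 62 of 80 higher). Pathways share genes, and the medians are descriptions without a test.

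In the promoter windows the elements shown above differed in how often they occurred in each group. RefSeq windows were matched for 4614 of the 5643 tested genes, 5954 windows in all, since a gene may have several. The ISRE core was in 47.5% of 59 windows of the interferon list, against 7.34% of the windows of all tested genes and 8.56% of all 32851 windows in the table. Among genes that rose by at least 1 it was in 20.3% of 232 windows, and among those that fell by at least 1 in 7.14% of 140. The kappaB site was in 47.8% of 23 windows of the NF-kB list and in 5.73% of those of all tested genes, and it did not distinguish direction, with 9.91% of the windows of genes that rose by at least 1 and 10.7% of those that fell.

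The C/EBP-ATF like element was in 27.8% of 36 windows of the integrated stress response list, against 2.54% for all tested genes. The CHR was in 72.2% of 54 windows of the mitosis list against 12.0%, and the CCAAT box (CCAAT), bound by NF-Y, in 74.1% against 37.8%. The AP-1 site (TGANTCA) was in 17.2% of the windows of genes that rose by at least 1, in 5.0% of those that fell and in 5.34% for all tested genes. The TATA box (TATAAA) was in 12.9% and 15% of the windows of genes that rose and fell, against 6.47%, and the GC box (GGGCGG) in 44.4% and 53.6% against 65.3%. Both strands were searched and matches could overlap, and these shares are descriptions without a test.

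**Figure D5:**
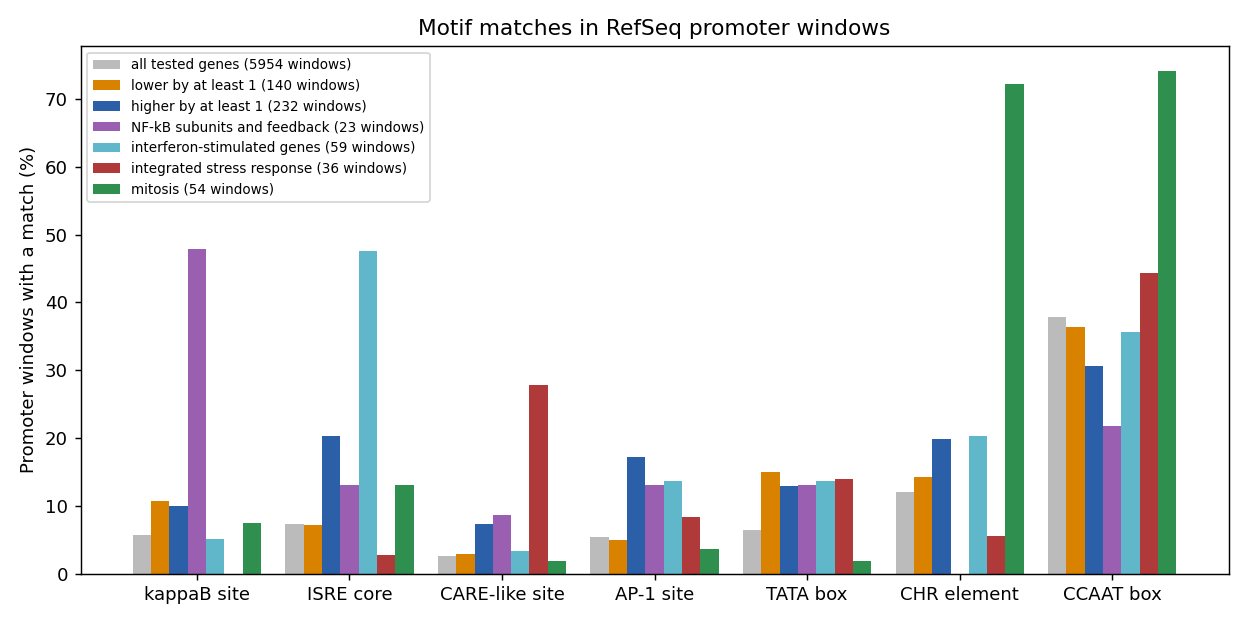
Share of RefSeq promoter windows (percent, vertical) with at least 1 match on either strand to each of 7 elements (horizontal), for all tested genes, for genes lower or higher by at least 1 at 12 h, and for 4 gene lists. The kappaB site, the ISRE core, the C/EBP-ATF like element (CARE-like site) and the CHR each have their highest bar in 1 list.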

How the data were processed

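RNA sequencing values of 9 libraries of BV2 cells were used, 3 per group, grouped by the labels. The authors deposited FPKM values per gene, and no later scaling is stated. The other deposited columns, per the file headers, are a p-value, a q-value, a rank score and a further flag from the authors' own test. That test is not given in the sources used here. The largest deposited q-value in the authors' deposited table is 0.0999 and the flag is 1 for all 6462 genes, so the listed genes were selected. The submitters' processing notes name Trimmomatic, HISAT2, Cufflinks, HTSeq, DESeq and the human build GRCh38, whereas the genes carry mouse symbols, so no gene coordinates of the files are printed. Per-sample columns left unused numbered 0.

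Values were compared as log2(FPKM + 1), which shrinks differences of low genes. The linear model had 1 mean per group and took in all 9 libraries (limma 3.58.1 under R 4.3.3, eBayes with trend, two-sided). Benjamini-Hochberg adjustment was made over the 5643 genes with a mean of at least 1 FPKM, with a threshold of 0.05. A value after ± is a standard error, and intervals are 95%. The fit was tested on simulated data. The comparison, the 27 gene lists and their members were chosen with earlier results of these data known. List counts cover tested members only and have no test. FPKM give no counts, and the steps between low values placed only 7 to 24 genes per library on ratios of small whole numbers, too few to settle relative depths, so the depth is unknown.

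The text names the 15 largest changes in each direction among called genes without overlap and with at least 5 FPKM in the higher group, the 5 largest gains and losses in FPKM, up to 4 members per list and direction, the title genes and polo-like kinases, some members that did not pass, and genes whose promoter is printed. Acod1, Ebi3, Cx3cr1, Nfkbia, Ifit1, Gbp2, Top2a and the genes of the closing observations were named outside this rule after their values were seen. Alternatives were pseudocounts of 0.1 and 0.5, no filter, a mean of at least 5 FPKM, median-of-ratios scaling, quantile normalization, eBayes without a trend, only the 6 libraries compared, a block for the library number, adjustment over 21878 genes, the number implied by the deposited ranks, and leaving out each library. Some items are not reported here.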

Additional observations from a re-analysis of the deposited data

How the results depend on the processing

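The counts of 2362 genes higher and 2461 lower at 12 h stayed within 1.5 times under every alternative, as did the 228 higher by at least 1. The 122 lower by at least 1 became 207 with a pseudocount of 0.1. When each library was left out in turn, the counts ran from 2268 to 2369 higher, 2408 to 2462 lower, 224 to 240 higher by at least 1 and 119 to 124 lower by at least 1. The labels do not say whether library numbers pair the samples. The deviations of same-numbered libraries correlated by -0.067 to 0.13, which with 3 libraries a group cannot settle the question. With the library number as a block the counts were 2354 higher and 2453 lower. Of the genes named, those whose difference changed sign were Cd68 (-0.0849), Eno1 (-0.109) and Hsp90aa1 (-0.00794) under quantile normalization, and, over the fits that leave out 1 library, Cxcl2 (-0.0773 to 0.281) and Il1b (-0.00218 to 0.337), both lowest without the third 12 h library and highest without the second. For none of these was the cause tested. Over all tested genes quantile normalization moved the median from 0.0065 to -0.022. The depth is unknown, the tested genes were selected for differing, and 3 libraries a group of unknown origin limit what the p-values cover.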

Other observations

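Several receptors and surface proteins outside the gene lists were among the larger changes, chosen after their values were seen. Aqp9, a channel for water and small solutes, was at 0.156, 0.139 and 0.289 FPKM at 1 h and 6.11, 5.96 and 6.37 at 12 h, a log2 difference of 2.58 ± 0.065. Siglec1, the sialic acid receptor of macrophages, was at 2.17, 2.605 and 2.38 FPKM at 1 h and 16.3, 14.9 and 16.7 at 12 h (2.32 ± 0.058), and Procr, the receptor of protein C, at 6.83, 7.13 and 6.99 FPKM at 1 h and 39.3, 36.2 and 45 at 12 h (2.36 ± 0.07). Msr1, a scavenger receptor, rose from 0.606, 0.7797 and 0.725 FPKM to 5.73, 5.29 and 6.42 FPKM (2.0 ± 0.07), whereas Clec7a, which encodes the glucan receptor dectin-1, fell from 16.7, 15.8 and 16.4 FPKM to 4.91, 4.43 and 5.37 FPKM (-1.55 ± 0.058). Aoah, the enzyme that removes acyl chains from LPS, was at 1.19, 1.102 and 1.51 FPKM at 1 h and 7.32, 6.53 and 7.62 at 12 h (1.85 ± 0.071). In all 6 genes the 1 h and 12 h libraries did not overlap, and against untreated cells the 1 h differences were 0.051 for Aqp9, -0.35 for Siglec1, -0.14 for Procr, -0.035 for Msr1, 0.21 for Clec7a and 0.04 for Aoah.

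The genes of this paragraph were likewise chosen singly after their values were seen and stand for no pathway. Pde4b, a phosphodiesterase of cyclic AMP, was at 0.967, 1 and 1.27 FPKM in untreated cells and 17.8, 17.8 and 16.4 FPKM at 1 h and 3.88, 3.73 and 3.76 at 12 h (-1.94 ± 0.059), and Ptger4, which encodes the prostaglandin E2 receptor EP4, fell from 12.2, 12.2 and 11.8 FPKM to 3.41, 3.22 and 3.35 FPKM (-1.60 ± 0.045). Both were highest at 1 h. Deptor, an inhibitor of mTOR, was at 8.99, 8.43 and 8.65 FPKM at 1 h and 1.81, 2 and 1.803 at 12 h (-1.75 ± 0.049), and Pdcd4, an inhibitor of translation, at 8.68, 8.89 and 8.24 FPKM at 1 h and 1.66, 1.79 and 1.76 at 12 h (-1.81 ± 0.058), after 1 h levels that differed from the untreated by -0.092 for Deptor and -0.21 for Pdcd4. Among transcription factors, Pou2f2, which encodes OCT2, was at 1.08, 0.9298 and 1.003 FPKM at 1 h and 8.16, 8.43 and 7.97 at 12 h (2.20 ± 0.054), and Id3, an inhibitor of bHLH factors, at 77.9, 82.4 and 79.4 FPKM at 1 h and 24.5, 20.7 and 23.4 at 12 h (-1.76 ± 0.062).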
